A study of Hydra viridissima with 2 samples.

Results

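In green hydra, 480 loci of capped 5′ ends carried a larger share of the tags in animals without algae than in animals with them, out of 5263 loci compared. They were chosen by that difference. The tags of both libraries were pooled by base and strand, positions with at most 20 bases between them were joined, and clusters of at least 5 pooled tags were kept. Neighbouring clusters of a strand with gaps of up to 1000 bases formed a locus, and a locus of at least 50 pooled tags was a member where (aposymbiotic CPM + 1)/(symbiotic CPM + 1) reached 1.5. CPM scales the tags of a locus to all tags of its library. The same rule built 54909 clusters and 17517 loci of any size. A locus stands in for a transcript's starts here, since gene models were not used and the files name no genes, so the labelled animals could not be checked against marker genes either.

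The data came from CAGE, which tags the capped 5′ end of RNA and so marks where transcripts begin, in whole Hydra viridissima of clone 2. There was 1 library from aposymbiotic polyps, which lack the green alga, and 1 from green polyps that carry it. Both were pools of about 200 large polyps of that clone, kept at 24 °C on brine shrimp, unfed for 2 to 3 days, with an RNA integrity number of 10. The aposymbiotic library held 2138180 tags and the symbiotic library 3926689, so a single tag stood for 0.468 aposymbiotic or 0.255 symbiotic CPM. With 1 library per group there is no replicate check and no test, and every difference is between these libraries. The intervals given are exact at 95% and hold counting error alone, and whether copies made in amplification were removed is not given in the labels.

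The green hydra houses unicellular algae of the Chlorella kind inside the epithelial cells that line its gut, and the algae pass sugars made by photosynthesis to the host. Polyps can be freed of the alga and kept as aposymbiotic lines. In mammals and flies, transcription starts come in a sharp form, with most starts at a single base, and in a broad form spread over a wider stretch. Many Hydra mRNAs also receive a short leader by trans-splicing, which replaces their own 5′ end. Which of these forms a tagged position belongs to was not checked.

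The loci higher in aposymbiotic animals were mostly weak and the differences mostly small. Members made up 9.12% of the loci compared, and 460 loci, 8.74%, passed the same ratio the other way. The median member had 48 aposymbiotic and 45 symbiotic tags, or 22.4 aposymbiotic and 11.5 symbiotic CPM. The ratio was below 2 in 369 members and between 2 and 4 in 103, and it was at least 4 in 8 members. Ratios of at least 2 occurred in 2.11% of the loci compared and ratios of at least 4 in 0.152%. The exact interval of the CPM ratio lay above 1 for 418 of the 480 members, against 14.3% of all loci compared, and above 1.5 for 102 members, against 1.94%. Both counts follow from how the members were chosen. Together the members held 3.88% of the aposymbiotic tags and 2.20% of the symbiotic tags.

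**Figure D1:**
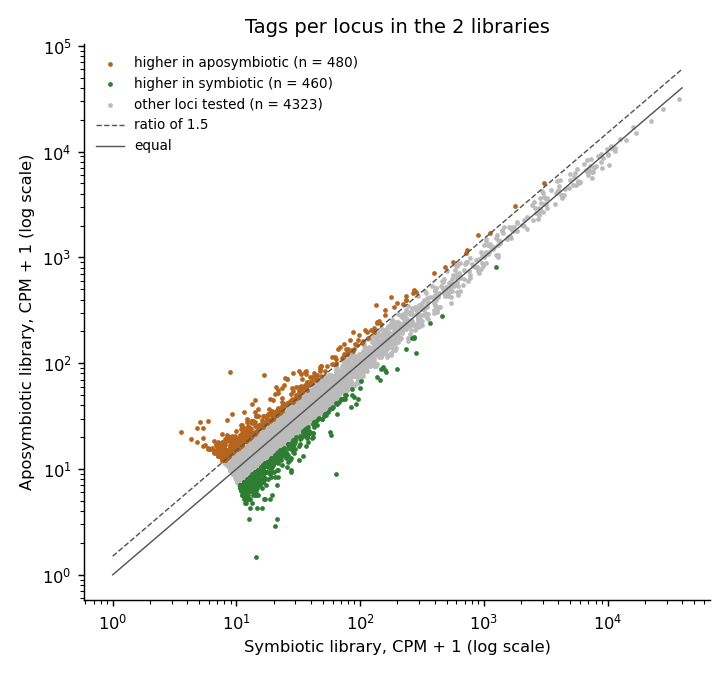
Tags per locus in the aposymbiotic library (vertical axis) against the symbiotic library (horizontal axis), both as CPM + 1 on log scales, with 1 point per locus of at least 50 pooled tags. The 480 loci chosen lie on or above the dashed line of ratio 1.5, mostly at the weak end, and the 460 loci past the same ratio in favour of the symbiotic library lie at the lower edge.

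At the threshold the choice was fine-grained. Just inside it lay the locus on scaffold_6 from 6601232 to 6602651, minus strand, with 73 aposymbiotic and 88 symbiotic tags and a ratio of 1.501. The locus on scaffold_9 from 3661166 to 3662189, minus strand, had 100 aposymbiotic and 121 symbiotic tags, a ratio also of 1.501. On scaffold_13 from 10245782 to 10247545, minus strand, 33 aposymbiotic and 39 symbiotic tags gave 1.503. Just outside lay loci on scaffold_1 from 34930983 to 34931856 (plus), where 37 aposymbiotic and 44 symbiotic tags gave 1.4997, and on scaffold_5 from 4343051 to 4343613, minus strand, with 28 aposymbiotic and 33 symbiotic tags and a ratio of 1.499. The next, on scaffold_8 from 5921402 to 5921824, plus strand, had the same counts. A handful of tags decided membership for such loci.

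The balance between the directions differed between classes of pooled tags. Pooled tags came mostly from the deeper symbiotic library, so these classes do not weigh both directions alike. How much of the balance this accounts for was not tested. Among loci of 50 to under 100 pooled tags, 258 of 2328 (11.1%) were higher in the aposymbiotic library and 304 (13.1%) were higher in the symbiotic one. From 100 to under 200 tags 98 of 1357 were higher in aposymbiotic and 97 in symbiotic animals. From 200 to under 500 tags, 70 of 840 (8.33%) were higher in the aposymbiotic library, against 42 (5%) the other way, and from 500 to under 2000 tags 42 of 488 (8.61%), against 15 (3.07%). Of the 250 loci of at least 2000 tags, 12 were members and 2 passed the ratio the other way. Among loci of at least 200 pooled tags, 124 were thus higher in the aposymbiotic library and 59 were higher in the symbiotic library.

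The 8 members with a ratio of at least 4 were weak, with 227 pooled tags at most, and the largest difference ran along a whole locus rather than sitting at a single start. The locus on scaffold_6 from 7329239 to 7330034, minus strand, had 174 aposymbiotic and 31 symbiotic tags, 81.4 aposymbiotic and 7.89 symbiotic CPM, a 10.3-fold difference in CPM (7.004 to 15.6). Its tags formed 12 clusters along 796 bases, and all 12 had more aposymbiotic CPM. Its strongest base held 6.34% of the tags. The strongest cluster, from 7329385 to 7329436 in the 3′ part, had 53 aposymbiotic and 4 symbiotic tags, 24.3-fold (8.96 to 92.6). The cluster with the most symbiotic tags, from 7329770 to 7329773, had 10 aposymbiotic and 7 symbiotic tags, 2.62-fold (0.901 to 8.12). Another, from 7329337 to 7329342, had 16 aposymbiotic tags and 0 symbiotic tags, at least 7.08-fold higher by the exact interval, and 9.79-fold with the symbiotic count set to 3 tags, which is what finding none allows. Without the strongest base the ratio on the CPM + 1 scale was 9.21, against 9.26 with it.

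A second locus on the same strand, from 7317560 to 7318105, lay downstream, and the pair spanned 12.5 kb. It had 165 aposymbiotic and 62 symbiotic tags, 4.89-fold (3.63 to 6.66), in 6 clusters. The clusters ranged from 3.48-fold to 9.55-fold, the highest of them from 7318002 to 7318051 with 26 aposymbiotic and 5 symbiotic tags (3.61 to 31.8). All 6 had more aposymbiotic CPM, and no other compared locus lay between the pair.

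The remaining 8 of the 10 largest ratios belonged to loci with at most 78 pooled tags. On scaffold_1 from 27362134 to 27362772, plus strand, 46 aposymbiotic and 10 symbiotic tags in 6 clusters gave 8.45-fold (4.21 to 18.8), with more aposymbiotic CPM in all 6. On scaffold_4 from 14461627 to 14461887, plus strand, there were 58 aposymbiotic and 16 symbiotic tags (6.66-fold, 3.78 to 12.4). There the cluster nearest the 5′ end went the other way, with 1 aposymbiotic and 4 symbiotic tags (0.459-fold, 0.00932 to 4.64), while the third cluster had 34 aposymbiotic and 5 symbiotic tags (12.5-fold, 4.86 to 40.9). The 5′ cluster's interval includes equality, so at this depth its direction cannot be told.

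The locus on the minus strand of scaffold_4, from 2285342 to 2286064, had 50 aposymbiotic and 15 symbiotic tags (6.12-fold, 3.38 to 11.7). Its cluster nearest the 5′ end, from 2286047 to 2286064, had 16 aposymbiotic and 0 symbiotic tags, at least 7.08-fold higher by the exact interval. Its cluster nearest the 3′ end, from 2285342 to 2285374, had 8 tags in each library, 1.84-fold (0.601 to 5.61). The share of tags past the midpoint was therefore 30% in aposymbiotic and 73.3% in symbiotic animals. The symbiotic share rests on 15 tags, and no interval is given for it.

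The other 5 of these loci were on scaffold_9 from 773694 (59 aposymbiotic and 19 symbiotic tags, 5.70-fold), scaffold_11 from 1496438 (39 aposymbiotic and 13 symbiotic, 5.51-fold), scaffold_7 from 4279782 (50 aposymbiotic and 17 symbiotic, 5.40-fold), scaffold_2 from 16754495 (36 aposymbiotic and 15 symbiotic, 4.41-fold) and scaffold_5 from 14270512 (40 aposymbiotic and 17 symbiotic, 4.32-fold). The lowest lower bound of their intervals was 2.35. More aposymbiotic CPM was found in every cluster of these loci except the last of the 6 on scaffold_5, which had 2 aposymbiotic and 5 symbiotic tags. The locus on scaffold_11 had the most concentrated form of the 10, with 153 bases, 3 clusters and 30.8% of its tags at 1 base.

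The 5 members with the most aposymbiotic tags differed by less than the 10 with the largest ratios, which were picked for their ratios. In some of the 5 the aposymbiotic excess varied along the locus. Over all members the median ratio changed little with strength. It was 1.75 from 50 to under 100 pooled tags, then 1.68, 1.74 and 1.70 in the next classes, and 1.67 from 2000 tags. The member with the most aposymbiotic tags, on scaffold_5 from 12120354 to 12121844, minus strand, had 10819 aposymbiotic and 11962 symbiotic tags, 5060 aposymbiotic and 3046 symbiotic CPM, 1.66-fold (1.62 to 1.70). Its strongest cluster, from 12121388 to 12121481, held 74.0% of the pooled tags and was 1.68-fold higher in the aposymbiotic library. A cluster nearer the 5′ end, from 12121757 to 12121812, was 1.24-fold higher, with 1196 aposymbiotic and 1777 symbiotic tags. One nearer the 3′ end, from 12120602 to 12120798, was 2.17-fold higher, with 1529 aposymbiotic and 1295 symbiotic tags. The dominant base was 12121469 in both libraries.

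On scaffold_1 from 34069463 to 34071113, minus strand, 3476 aposymbiotic and 3529 symbiotic tags gave 1.81-fold (1.73 to 1.90). Its 5 main clusters were 1.18-fold, 1.56-fold, 1.96-fold, 2.16-fold and 3.70-fold higher in the aposymbiotic library in order from the 5′ end. The intervals of neighbours in this order overlapped only between the clusters at 1.96-fold and 2.16-fold. A last cluster at the 3′ end held 5 aposymbiotic and 4 symbiotic tags.

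On scaffold_9 from 14358727 to 14361359, minus strand, 3652 aposymbiotic and 4401 symbiotic tags gave 1.52-fold (1.46 to 1.59). The first cluster, from 14361268 to 14361359, held 74.6% of the tags and was 1.41-fold higher, and the second, from 14361059 to 14361191, was 2.05-fold higher, with 924 aposymbiotic and 827 symbiotic tags. The other 11 clusters, spread over the remaining bases, had at most 85 pooled tags each, and 3 of them had fewer aposymbiotic CPM. The strongest cluster alone lay below a ratio of 1.5 and the second above it.

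The locus on scaffold_3 from 7751953 to 7752858, minus strand, had 6564 aposymbiotic and 6990 symbiotic tags, 3070 aposymbiotic and 1780 symbiotic CPM, 1.72-fold (1.67 to 1.78). A single cluster held 99.7% of them. The locus on scaffold_1 from 33373920 to 33374734, plus strand, had 2511 aposymbiotic and 2885 symbiotic tags, 1.60-fold (1.51 to 1.69). It was sharp: the base at 33374230 alone held 53.4% of the pooled tags, with 1366 aposymbiotic and 1514 symbiotic tags, and the strongest cluster had a width of 3 bases between the 10th and 90th percentile of its tags. Without that base the ratio was 1.53.

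**Figure D2:**
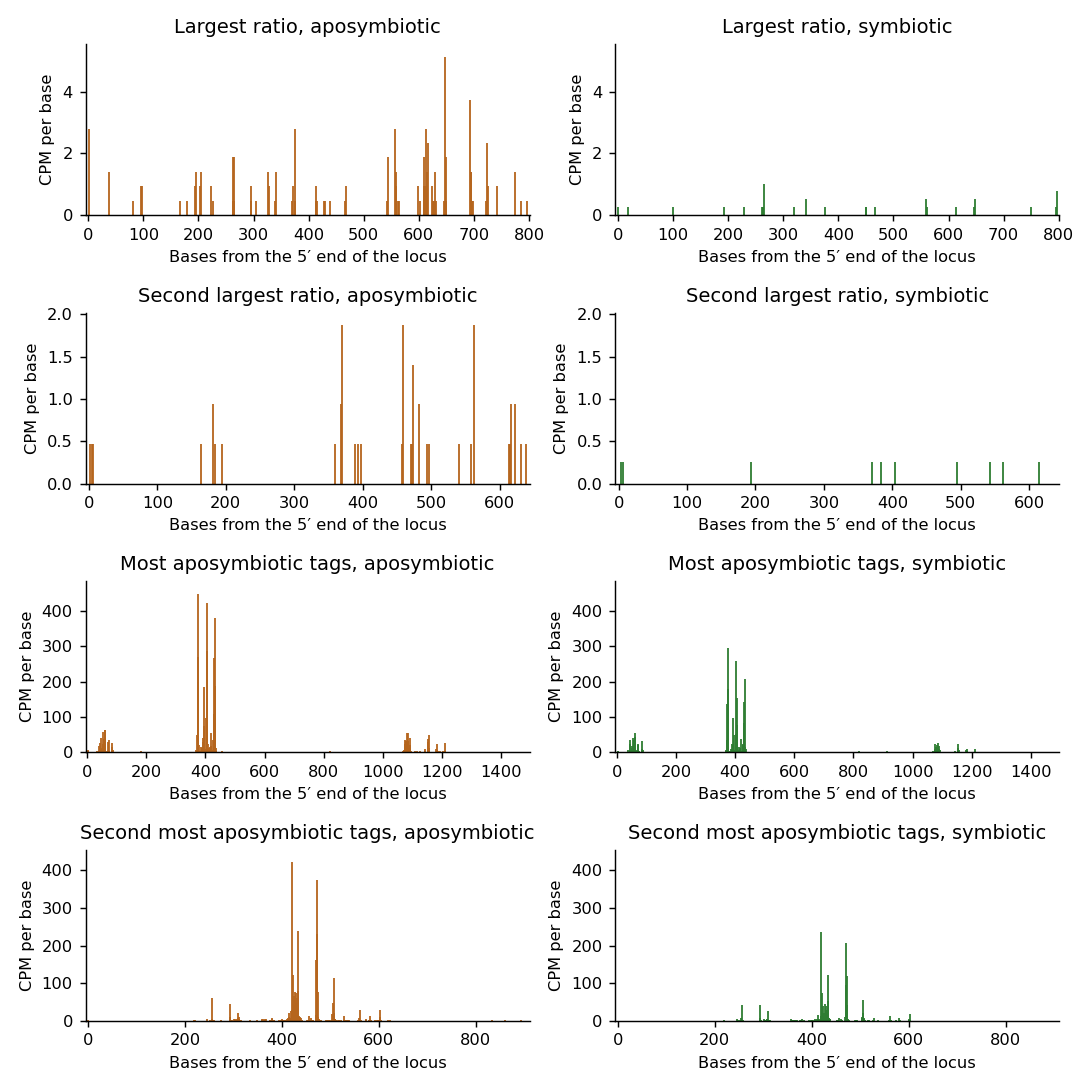
CPM per base (vertical axes, same scale within a row) against the distance in bases from the 5′ end of the locus, aposymbiotic library at left and symbiotic library at right, for the largest and second largest ratio (scaffold_6 and scaffold_1, upper rows) and the most and second most aposymbiotic tags (scaffold_5 and scaffold_3, lower rows). The upper rows show tags scattered along the locus in both libraries and the lower rows the same tall peaks at different heights.

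Members were shorter than other loci of like strength and had more of their tags in 1 cluster. The median span was 608 bases in members and 765 over all loci compared, and the median number of clusters was 5 in members and 6 over all. Since members had fewer tags (a median of 92 against 113), the form was set out by class of pooled tags. From 200 to under 500 tags the median span was 649.5 bases in members and 963.5 over all, and from 500 to under 2000 tags 988 in members and 1136.5 over all. The strongest cluster held a median of 51.6% of a member's tags and 41.7% over all from 200 to under 500 tags, and 65.2% in members and 52.4% over all from 500 to under 2000. In loci of 50 to under 100 tags these values lay closer, at 520.5 bases and 42.4% in members and 569.5 bases and 39.3% over all. The loci past the ratio the other way were compact in that higher class too, with a median span of 891 bases and 70.9% of tags in the strongest cluster, over only 15 loci. These are medians over loci of 2 libraries, without a test.

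**Figure D3:**
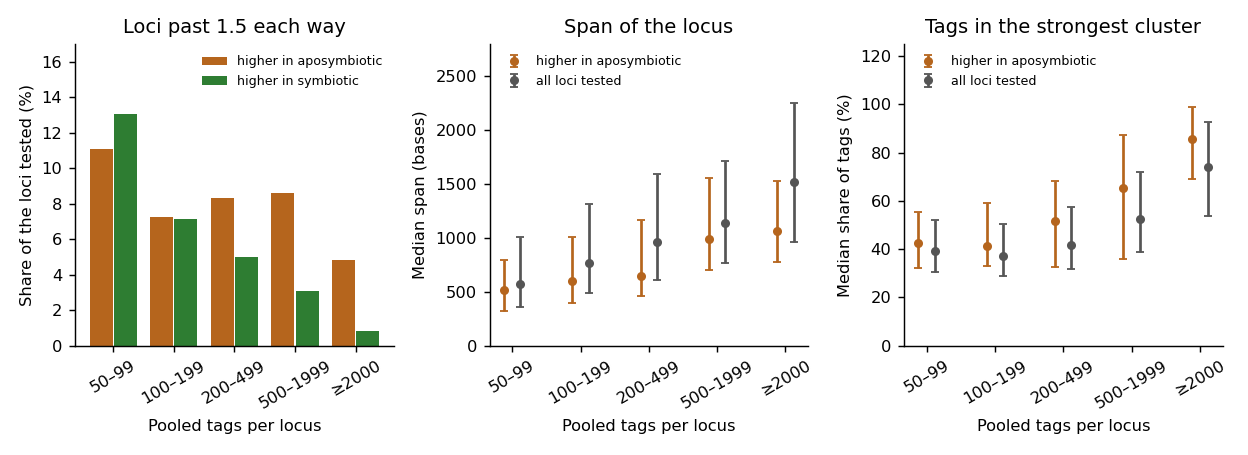
Left, the share of loci past a ratio of 1.5 in each direction by class of pooled tags; centre and right, the median span and the median share of tags in the strongest cluster, with bars from the first to the third quartile over loci. From 200 to under 500 tags members spanned a median of 649.5 bases, against 963.5 over all loci compared.

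Among the stronger members, some compact forms had larger shares than over all loci compared, and others were shared with loci that differed the other way. Of the 124 members of at least 200 tags, 23 (18.5%) had at least 90% of their tags in 1 cluster, against 10.6% of all 1578 such loci and 15.3% of those past the ratio the other way, and 11 (8.87%) spanned at least 2000 bases, against 18.4% over all and 11.9% of those the other way. The strongest cluster was at most 10 bases wide in 12 of the 124 members (9.68%), against 5.32% over all and 2 of the 59 loci past the ratio the other way. The strongest cluster was also the one nearest the 5′ end in 26.6% of these members, against 13.9% over all and 16.9% of those the other way. A single cluster made up the whole locus in 6 of these members (4.84%), against 2.72% over all and 10.2% of those the other way, and spans of at most 200 bases made up 6.45%, against 2.34% over all and 8.47% of those the other way. Strongest clusters of at most 10 bases were not more frequent in every class. From 100 to under 200 tags they made up 12.2% of members, against 15.2% over all and 17.5% the other way. Over all classes the shares were 16.7%, 14.7% and 16.3% in the same order. The strongest cluster's median width from 200 to under 500 tags was 72.5 bases in members and 70 over all. From 500 to under 2000 tags it was 99 in members and 112 over all.

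At the extreme of these compact forms, a single base held at least 50% of the pooled tags in 10 members (2.08%). There were 26 such loci in all (0.494%) and 1 among those past the ratio the other way (0.217%). These 10 were picked out after their values were seen. The strongest after the sharp locus on scaffold_1 was on scaffold_12 from 12655308 to 12655366, minus strand, with 1059 aposymbiotic and 1075 symbiotic tags in 1 cluster of 59 bases, 1.81-fold (1.66 to 1.97). Its main base held 76.5% of them, 806 aposymbiotic and 826 symbiotic tags. On scaffold_5 from 15501958 to 15501982, minus strand, 174 aposymbiotic and 136 symbiotic tags lay in 25 bases, 2.35-fold (1.87 to 2.96), 71.3% of them at 1 base. On scaffold_3 from 14034677 to 14034776, plus strand, 141 aposymbiotic and 143 symbiotic tags gave 1.81-fold (1.42 to 2.30), with 84.2% at 1 base.

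The ratio at these loci was also computed without the main base. With it left out, the ratio on the CPM + 1 scale was 1.85 on scaffold_12, 1.88 on scaffold_5 and 1.52 on scaffold_3. It fell below 1.5 in 1 of the 10, on scaffold_9 from 5548669 to 5548683, plus strand (32 aposymbiotic and 35 symbiotic tags, 85.1% at 1 base), where it was 1.47. On scaffold_3 and scaffold_9 few tags were left without the main base, and no interval was computed for them. Whether an excess lay outside the main base there cannot be told.

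At the other end of the range, long members held many small clusters. The most clusters, 18, were found on scaffold_2 from 19314845 to 19319637, plus strand, where there were 209 aposymbiotic and 229 symbiotic tags, 1.68-fold (1.38 to 2.03). More aposymbiotic CPM was found in 13 of them, and the one from 19317763 to 19317776, with 12 aposymbiotic and 33 symbiotic tags, was at 0.668-fold (0.314 to 1.33). Its dominant base differed between the libraries by 2537 bases, at 19318263 in aposymbiotic and 19315726 in symbiotic animals. Few tags set this, since the base with the most pooled tags had 10 aposymbiotic and 8 symbiotic tags, 4.11% of the locus.

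On scaffold_12 from 11254254 to 11257685, plus strand, 756 aposymbiotic and 523 symbiotic tags in 17 clusters gave 2.65-fold (2.37 to 2.97), and the aposymbiotic CPM was higher in 16 of them. This was the largest difference among members of at least 500 pooled tags. Its strongest clusters, from 11256554 to 11256690 and from 11256719 to 11256854, were 2.32-fold and 2.67-fold higher. The third long locus, on scaffold_11 from 10549050 to 10551691 of the minus strand, split 289 aposymbiotic and 348 symbiotic tags among 14 clusters, a difference of 1.53-fold (1.30 to 1.79).

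Across members, the strongest cluster and the weaker ones had similar median ratios, but in many members only 1 of these parts reached 1.5. In the 461 members with at least 2 clusters, the median ratio was 1.72 for the strongest cluster and 1.75 for all other clusters together. Both reached 1.5 in 197 members, the strongest cluster alone did in 119 and the other clusters alone in 142. Over all loci of at least 2 clusters the strongest cluster reached 1.5 in 13.3% and the others in 13%. Of the 930 clusters in members with at least 20 pooled tags, 871 were above 1 and 626 reached 1.5, against 49.8% and 15.9% over all loci compared. These shares follow from the choice of members. Leaving out each locus's strongest base kept 413 of the 480 above 1.5 and all 480 above 1, and 9.69% of the loci compared then reached 1.5.

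Counting bases instead of tags gave smaller differences. A member had tags at a median of 23 bases in each library, against 22 aposymbiotic and 33 symbiotic bases over all loci compared. Scaled to the number of bases with a tag in each library, 471 members had a ratio above 1 and 221 (46.0%) reached 1.5, against 54.5% and 6.5% over all loci. The bases come from the same tags that chose the members, so these shares also follow from the choice. The dominant base was the same in both libraries in 41.7% of members and in 39.8% of all loci. Among loci of at least 2000 tags it was the same in all 12 members and in 83.2% of all 250 loci.

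The aposymbiotic excess was larger toward the 3′ end of members, a slope that the other loci shared. Summed over members, the 10% of the span nearest the 5′ end had 1.55 times as many aposymbiotic as symbiotic CPM (1.51 to 1.58) and the 10% nearest the 3′ end 2.15 times (2.06 to 2.23). In the loci between the thresholds the ratio was 0.899 at the 5′ end and 1.13 at the 3′ end. Past the midpoint lay 38.9% of the aposymbiotic tags of members (38.6 to 39.2) and 34.9% of the symbiotic tags (34.6 to 35.3), against 40.3% of aposymbiotic and 37.4% of symbiotic tags over all loci compared. The share past the midpoint was larger in the aposymbiotic library in 292 members and smaller in 183, against larger in 3333 and smaller in 1913 of all loci. In the 111 members with a ratio of at least 2 the shares were 55.0% of aposymbiotic and 54.2% of symbiotic tags. These sums weight strong loci most.

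**Figure D4:**
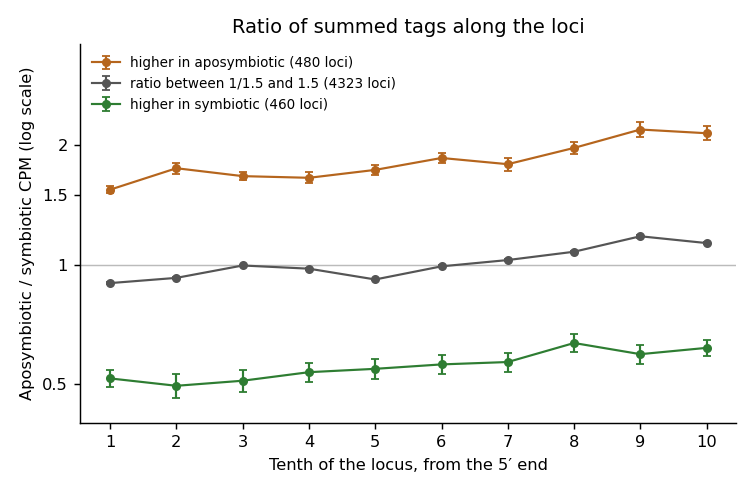
Ratio of aposymbiotic to symbiotic CPM (vertical axis, log scale) in each of 10 equal parts of the locus from the 5′ end, tags summed over loci, with exact 95% counting intervals. The line of the members starts at 1.55 and ends at 2.15, and the lines of the other loci also end higher than they start.

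Members were mostly scattered through the genome. Another member on either strand lay within 20 kb of 57 of the 480 (11.9%), and 10.0% of all loci compared had a member within that distance. Any compared locus lay within 20 kb of 64.8% of members and of 66.9% of all loci. Where a member had a compared locus within 20 kb, the nearest was itself a member in 47 of 311 cases (15.1%), against 8.75% over all loci. The nearest was past the ratio the other way in 19 cases (6.11%), against 8.38%. On the same strand 37 of 242 nearest loci were members (15.3%, against 9.08% over all) and on the opposite strand 14 of 133 (10.5%, against 8.25%). The median log2 ratio of the nearest locus was 0.12 on the same strand and 0.00 on the opposite strand. Neighbours on the same strand may belong to 1 transcript, which was not tested without gene models.

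When members at most 20 kb apart were joined, 423 stood alone, 25 pairs formed and 2 longer runs held 3 and 4 members. The longest run lay on scaffold_5 from 15440848 to 15474313, with 4 of the 5 compared loci in its 33.5 kb as members, all on the plus strand. In order along the strand they had 26 aposymbiotic and 26 symbiotic tags (1.84-fold, 1.02 to 3.29), 36 aposymbiotic and 36 symbiotic tags (1.84-fold, 1.12 to 3.00), 154 aposymbiotic and 93 symbiotic tags (3.04-fold, 2.34 to 3.98) and 72 aposymbiotic and 41 symbiotic tags (3.23-fold, 2.17 to 4.85). The locus that was not a member also had more aposymbiotic CPM.

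A second run on scaffold_5, from 16320618 to 16338373, held 3 members on the plus strand among 5 compared loci. The first had 320 aposymbiotic and 287 symbiotic tags, 2.05-fold (1.74 to 2.41), and its 5 clusters were 1.44-fold, 1.78-fold, 3.24-fold, 3.86-fold and 4.08-fold higher from 5′ to 3′. The second, from 16323804, had 367 aposymbiotic and 447 symbiotic tags, 1.51-fold (1.31 to 1.73). Its main cluster, from 16323991 to 16324336, held 84.2% of the tags, with 312 aposymbiotic and 373 symbiotic, 1.54-fold (1.32 to 1.79). The other 6 clusters had 38 tags or fewer each and ranged from 0.570-fold (0.237 to 1.24) to 5.97-fold (1.84 to 25.1). The third, from 16338241, had 54 aposymbiotic and 40 symbiotic tags, 2.48-fold (1.62 to 3.83). Both compared loci there that were not members had more aposymbiotic CPM as well.

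The pair with the most tags lay on opposite strands of scaffold_1, between 3166214 and 3174345. On the minus strand 1935 aposymbiotic and 2190 symbiotic tags formed 6 clusters, 1.62-fold (1.53 to 1.73), and its 4 main clusters showed no slope, at 1.75-fold, 1.59-fold, 1.51-fold and 1.69-fold from the 5′ end. The plus-strand locus, from 3173013, had 838 aposymbiotic and 916 symbiotic tags, 1.68-fold (1.53 to 1.85), and its main clusters stood at 1.56-fold, 1.42-fold and 1.94-fold. The strands pointed away from each other.

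Members made up unequal shares of the loci on different scaffolds. On scaffold_2, which had the most loci, 47 of 686 were members (6.85%, 5.08 to 9.01), and on scaffold_1 40 of 577 (6.93%). The share was 15% on scaffold_13 (30 of 200, 10.4 to 20.7), against 6% past the ratio the other way, and 13.6% on scaffold_5 (40 of 295, 9.87 to 18.0), against 10.8%. On scaffold_16 it was 19.4% (12 of 62), with 16.1% the other way. The lowest share among scaffolds with at least 50 loci was 3.16% on scaffold_14 (5 of 158, 1.04 to 7.23). The small scaffold_18 had 5 members among 18 loci and none the other way. These intervals treat loci as independent, which neighbours on 1 strand need not be. Plus-strand loci made up 47.1% of members and 50.7% of all loci.

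**Figure D5:**
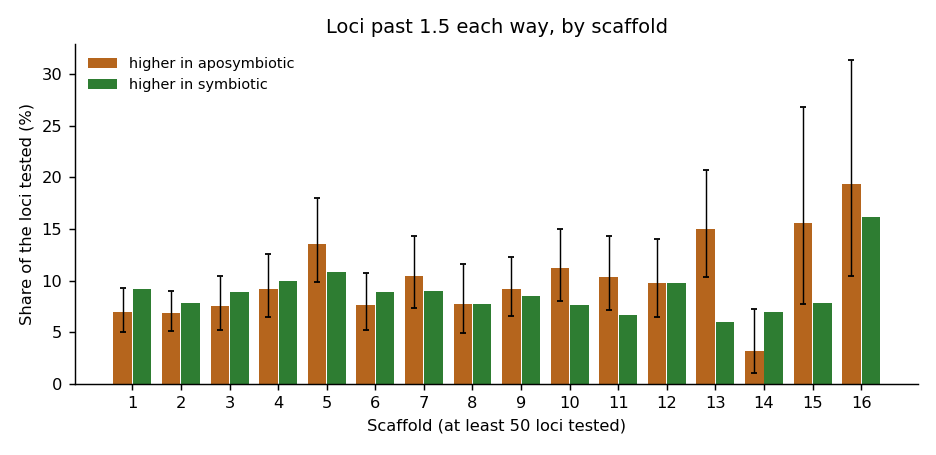
Share of the compared loci past a ratio of 1.5 in favour of each library (vertical axis, percent) by scaffold with at least 50 such loci; error bars on the aposymbiotic bars are exact 95% binomial intervals. The members range from 3.16% on scaffold_14 to 19.4% on scaffold_16.

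The authors' deposited cluster lists covered nearly all members in both libraries. Every member overlapped at least 1 cluster listed for the aposymbiotic library, and 476 overlapped 1 listed for the symbiotic library, regardless of strand. Such overlap was general: of all 5263 loci compared, 146 overlapped no aposymbiotic and 4 no symbiotic cluster. The 4 without a symbiotic cluster had 10 to 24 symbiotic tags. They lay on scaffold_1 from 27362134 (46 aposymbiotic and 10 symbiotic tags), scaffold_7 from 4279782 (50 aposymbiotic and 17 symbiotic), scaffold_3 from 18756691 (32 aposymbiotic and 19 symbiotic) and scaffold_11 from 10630852 (32 aposymbiotic and 24 symbiotic). Every member thus had tags in both libraries, with a lowest symbiotic count of 10, and none was confined to aposymbiotic animals.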

How the data were processed

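The deposited files give raw counts of 5′ tags per base and strand for each library, and the authors' start clusters of at least 5 tags with their counts. Per the labels' protocols, RNA was decapped, a biotinylated dinucleotide was ligated to the freed 5′ ends, and cDNA was primed at random and captured on streptavidin, so the values count 5′ ends. Per the submitters' processing notes, fastp (1.1.0) and STAR (2.7.11b) were used. For the genome build, tag counter and removal of duplicates the sources used here give nothing. Duplicates left in would make the counting intervals too narrow.

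Clusters, loci and ratios were computed as described above, with strands kept apart. A cluster's width runs between the 10% and 90% points of its tags. Intervals for shares and ratios are Clopper-Pearson intervals. No p-value was computed, since each group had 1 library. The steps were tested on simulated data.

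Members, lists and named loci were chosen with earlier results of these data known. Named are the 10 members with the largest ratio, the 5 with the most aposymbiotic tags, those in the 3 largest runs, the 3 with the most clusters and the 3 loci on each side of the threshold; loci dominated by 1 base and those missing from a deposited list were added after their values were seen. Coordinates count from 1. TMM scaling came from edgeR 4.0.16 in R 4.3.3, and all else from Python 3.11.15 with scipy 1.17.1, pandas 2.3.3, numpy 2.4.6 and matplotlib 3.10.9.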

Additional observations from a re-analysis of the deposited data

Results flagged for a closer look

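Tags on the opposite strand lay within the spans of members and were not counted for those members. Any that belonged to other loci were not set apart. There were 7 in aposymbiotic and 22 in symbiotic animals, against 82916 and 86525 tags on the members' own strand. Over all loci compared there were 160 in aposymbiotic and 299 in symbiotic animals, against 1933110 and 3555074 tags on the loci's own strand. Both counts for members exceed 3 tags, the level above which they were listed here.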

How the results depend on the processing

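The number of members moved most with the tags and the ratio asked of a locus. It was 111 at a ratio of 2, which is 2.11% of the 5263 loci compared, against 480 (9.12%). With at least 100 pooled tags it was 222, with at least 20 it was 1134, and with no minimum 2985 among 17517 loci. The number of loci compared changed with the minimum, with the joining and cluster rules and with thinning. Counts under those settings are therefore not shares of the same loci. Every other alternative gave 322 to 535, among them 374 with the symbiotic library thinned to equal depth and 487 with TMM scaling (454 the other way). The median number of clusters was 6 with at least 100 tags or joining to 2000 bases, 3 with at least 20 tags or clusters of at least 10, and 2 with no minimum.

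The median share of tags in the strongest cluster was 47.5% with at least 100 tags, 47.7% with at least 20, 91.5% with no minimum, 47.4% joining to 500 bases, 40.4% joining to 2000, 51.8% with clusters of at least 10 tags, 46.1% at a ratio of 2, 41.8% without the strongest base and 40% with each base counted once. Members with another member within 20 kb made up 22.8% with at least 20 tags, 40.9% with no minimum and 15.7% joining to 500 bases. Each of these settings also had more members, and the share over all loci was not computed for them, so these values do not show closer grouping. In the main setting another member lay within 5 kb of 4.17% of members, against 3.10% of all loci compared. Within 100 kb the values were 38.5% of members, against 34.6% of all loci.

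The aposymbiotic and symbiotic shares of tags past the midpoint were 38.1% and 33.9% with 5 CPM added, 37.7% and 33.7% with at least 100 tags, 40.0% and 36.1% with at least 20, 40.7% and 36.7% with no minimum, 40.7% and 37.0% joining to 500 bases, 36.3% and 32.7% with clusters of at least 10 tags, 55.0% and 54.2% at a ratio of 2, 38.4% and 34.5% thinned, 43.1% and 39.2% without the strongest base, and 47.4% and 44.5% with each base counted once. The symbiotic share was 35.3% with 0.5 CPM added and 35.9% joining to 2000 bases. Apart from what each rule selects, the cause was not tested.

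The 30 members named by rule stayed at or above the threshold in 286 recomputed values and fell below it in 44, 13 of them with each base counted once and 15 against the raised ratio of 2, and none reversed. The loci just outside the threshold and those added after their values were seen were not recomputed, except where the rule also named them. Keeping only members whose interval lay above 1, an alternative chosen after seeing the data, left 418. No paired analysis was possible because there is 1 library a group, which also leaves no replicate to omit.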
